A study of Mus musculus with 28 samples.

Results

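The 8 genes described here, Zfp36, Zfp36l1, Zfp36l2, Btg1, Btg2, Zc3h12a, Zc3h12d and Rc3h1, encode proteins that shorten the life of mRNAs. They were chosen by symbol from the 25124 genes of the deposited expression table, and all 8 reached at least 1 TPM (a length-normalised measure that gives each transcript as a share of its library's total) in each of the 28 libraries. The libraries were made from CD4+ T cells of the small intestinal lamina propria, sorted as live CD45+ CD90.2+ TCRb+ CD4+ cells. All mice carried the T-bet-ZsGreen reporter, in which a fluorescent protein marks T-bet expression, so every group shares that allele and no group is unmodified. The groups were SPF mice (specific-pathogen-free, with a gut flora) given an isotype control antibody (n = 6, 3 female and 3 male), SPF mice given aCD3, an antibody to the CD3 chains of the T cell receptor complex (n = 6, 3 female and 3 male), germ-free (GF) mice given isotype (n = 10, 5 female and 5 male) and GF mice given aCD3 (n = 6, 1 female and 5 male). The age of the mice, the dose and the time after injection were not used here, and the labels do not say whether each library came from its own mouse, so p-values measure the spread between these libraries.

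Proteins of the ZFP36 family (Zfp36, also called tristetraprolin, Zfp36l1 and Zfp36l2) bind AU-rich elements in the 3′ UTRs of mRNAs and recruit the CCR4-NOT complex, which removes the poly(A) tail. BTG1 and BTG2 bind the deadenylase subunits of the same complex and promote tail shortening more generally, whereas Regnase-1 (Zc3h12a) is an endonuclease that cuts stem-loops in 3′ UTRs, Zc3h12d is its paralog Regnase-4, and Roquin-1 (Rc3h1) binds stem-loops and recruits decay enzymes. In T cells these factors are known for limiting cytokine and costimulatory receptor mRNAs, and BTG1 and BTG2 for their abundance in resting cells.

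The AU-rich nonamer TTATTTATT, the preferred site of ZFP36 proteins, was searched in the 3′ UTRs of GENCODE M21 transcripts (build GRCm38, the assembly also named mm10) that match the RefSeq transcript of the table, taking the longest where several matched. It was found in 4 of the 8 members, among them all 3 genes of the ZFP36 family, against 6.21% of 17666 genes. Longer 3′ UTRs hold it more often: it was present in 4.38% of genes with a 3′ UTR between 80% and 125% of the length of that of Zfp36, in 9.01% for Zfp36l1, in 8.85% for Zfp36l2 and in 27.5% for Rc3h1, whose 3′ UTR is 7181 bases long. Btg1, Btg2, Zc3h12a and Zc3h12d had no nonamer in the window searched, although each held between 2 and 11 copies of the shorter ATTTA. The member windows are printed, with that of the ZFP36 target Il2 for comparison, because they show matches to this element in mRNAs of the family itself and of Rc3h1. Windows are written 5′ to 3′ on the strand of the gene with the nonamer in capitals, and a match says nothing of binding.

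Zfp36, chr7:28376950-28376979, minus strand: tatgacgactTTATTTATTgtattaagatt
Zfp36l1, chr12:80108166-80108195, minus strand: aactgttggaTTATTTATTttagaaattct
Zfp36l2, chr17:84184913-84184942, minus strand: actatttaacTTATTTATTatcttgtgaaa
Rc3h1, chr1:160970043-160970072, plus strand: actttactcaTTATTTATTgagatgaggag
Il2, chr3:37120897-37120926, minus strand: ttatctgaaaTTATTTATTatattgaattg

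RefSeq promoters (GRCm38.p6) were at hand for 7 of the 8 members, the exception being Zfp36l2, and their 250 bases upstream of the start were searched on both strands for 7 motifs of factors that act in stimulated T cells. Btg2 held the cAMP response element TGACGTCA, which 1.55% of 32851 promoters hold, with its bases 166 to 159 before the start. Zfp36 held a CArG box, the element of serum response factor, 58 to 49 bases before the start, as do 1.47% of promoters. Zfp36l1 and Rc3h1 held an AP-1 site (TGANTCA, 6.75% of promoters), Zc3h12a an NF-kB site (16.8%), Btg1 and Btg2 the partial element TGACG (17.8%, in Btg2 inside the full one) and Zfp36l1 the NFAT core GGAAAA (20.4%). The EGR site GCGTGGGCG (0.536%) was in none of the 7 windows and no searched motif was in that of Zc3h12d. The windows of the rarest matches are shown. No relation between motif and expression was tested. The motif is in capitals.

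Btg2, chr1:134079303-134079332, minus strand: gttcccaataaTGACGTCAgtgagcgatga
Zfp36, chr7:28379267-28379296, minus strand: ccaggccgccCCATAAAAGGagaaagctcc
Zfp36l1, chr12:80113125-80113154, minus strand: tgaccgcatggcTGATTCAacctcagtgtc
Rc3h1, chr1:160906266-160906295, plus strand: cgttggggccggTGACTCAgagctttcctc

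Reads in genes ran from 6765529 to 17860611 per library, and 12182 genes with at least 1 TPM in at least 6 libraries were tested with limma on log2(TPM + 1). TPM is a share, so that a larger share of some genes leaves less for the others. Histone genes took 5.25% of summed TPM in SPF isotype and 25.4% in SPF aCD3, and the median tested gene moved by -0.35 (log2) between these groups. Changes in SPF mice are therefore also given after median of ratios scaling, which brings that median to -0.01. All 10 CD4 T cell markers were present in every group, with a summed level of 1868 to 2504 TPM over the 28 libraries. Of the markers of other cells, the 7 B and plasma cell genes summed to 95.8 to 272 TPM in SPF isotype, nearly all Jchain, and to 2.55 to 8.82 TPM in SPF aCD3. The 8 myeloid genes summed to 1.78 to 11.6 TPM and 57.5 to 106 TPM, the latter nearly all Cd68, with C1qa and C1qb at 0 in every SPF aCD3 library. The 6 pancreatic acinar genes reached 495 TPM in a GF aCD3 library. The part of these markers in the results below was not tested.

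In SPF isotype libraries the members covered a wide range of levels, here in TPM per genomic length with introns, so that genes with long introns such as Rc3h1 and Zc3h12d read low. Btg1 was highest at 1807 ± 148 TPM (SD, n = 6), followed by Zfp36l2 at 1593 ± 217 TPM, and the ranges of these neighbours overlapped. Zfp36 at 1162 ± 111 TPM and Btg2 at 1047 ± 161 TPM also overlapped each other, while every Zfp36l2 library lay above every Zfp36 library. Zfp36l1 (603 ± 113 TPM), Zc3h12a (99.6 ± 17.3 TPM), Rc3h1 (19.4 ± 2.22 TPM) and Zc3h12d (7.87 ± 0.91 TPM) followed with no overlap between neighbours. The lowest read number behind any member value was 217, for Zc3h12d in a GF isotype library.

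**Figure D1:**
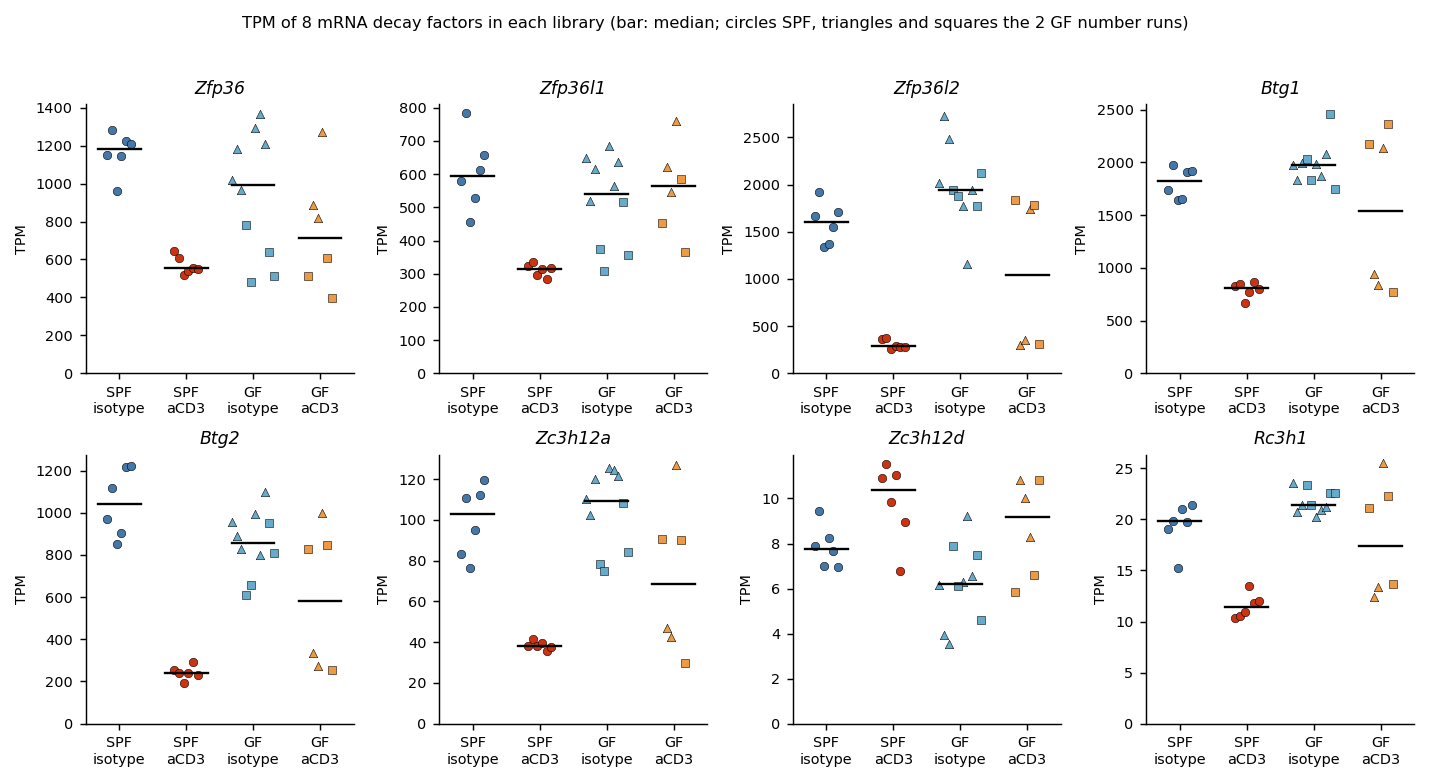
TPM (vertical axis, from 0) of each member in each of the 28 libraries, by group; points are libraries, bars are group medians, and triangles and squares mark the 2 runs of sample numbers of the GF libraries. In SPF mice every aCD3 library lies below every isotype library for 7 members, and in GF aCD3 the libraries of Zfp36l2, Btg1, Btg2, Zc3h12a and Rc3h1 fall at 2 separate levels.

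The first question was how aCD3 changed these genes in mice with a flora. In SPF aCD3, 7 of the 8 members, all but Zc3h12d, were lower than in SPF isotype at a limma adjusted p under 0.05, where 50.7% of all tested genes were called lower (64.8% in either direction). After median of ratios scaling, 29.3% of genes were called lower and 30.6% higher. The same 7 members were called lower and Zc3h12d was called higher. In bulk samples, fewer cells of a type and less RNA per cell cannot be told apart.

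Within the ZFP36 family the change was largest in Zfp36l2, known, with Zfp36l1, for roles in lymphocyte development and quiescence. Its SPF isotype libraries ran from 1343 to 1916 TPM with a median of 1608, and its SPF aCD3 libraries from 255 to 378 TPM with a median of 284. The groups were far apart, and the log2 fold change was -2.37 (SE 0.36, limma adjusted p = 9.16e-06), or -1.95 after scaling (limma adjusted p = 8.6e-06).

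Zfp36, the founding member of the family and a regulator of Tnf mRNA, ran from 962 to 1283 TPM (median 1181) in SPF isotype and from 519 to 642 TPM (median 553) in SPF aCD3. Its log2 fold change was -1.03 (SE 0.25, limma adjusted p = 0.000908), and -0.61 after scaling (limma adjusted p = 0.0364). Zfp36l1, its paralog, ran from 457 to 785 TPM (median 596) in isotype and from 285 to 336 TPM (median 315) in aCD3. The groups again did not overlap, and the gene changed by -0.93 on the log2 scale (SE 0.18, limma adjusted p = 0.000125), and by -0.51 after scaling (limma adjusted p = 0.0151).

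Both BTG genes fell. Btg2, also known as a p53 target and an antiproliferative gene, ran from 852 to 1223 TPM (median 1042) in SPF isotype and from 194 to 293 TPM (median 240) in SPF aCD3. The log2 fold change was -2.11 (SE 0.26, limma adjusted p = 1.86e-06), and -1.68 after scaling (limma adjusted p = 1.72e-06), with no overlap between the groups. Btg1, the most abundant member, ran from 1642 to 1979 TPM (median 1823) in isotype and from 667 to 861 TPM (median 812) in aCD3. Its log2 fold change was -1.18 (SE 0.21, limma adjusted p = 4.37e-05), and -0.76 after scaling (limma adjusted p = 0.000274), again with no overlap.

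The 2 Regnase genes did not move together. Zc3h12a, the nuclease Regnase-1, ran from 76.6 to 119 TPM (median 103) in SPF isotype and from 35.8 to 41.4 TPM (median 38.2) in SPF aCD3, a change of -1.33 on the log2 scale (SE 0.24, limma adjusted p = 4.05e-05) and of -0.92 after scaling. Zc3h12d ran from 6.97 to 9.44 TPM (median 7.77) in isotype and from 6.79 to 11.5 TPM (median 10.4) in aCD3, so that the groups overlapped in TPM. Its log2 fold change was 0.28 (SE 0.17, limma adjusted p = 0.162) in TPM and 0.67 (SE 0.20, limma adjusted p = 0.00519) after scaling. On the scaled values, 6.66 to 8.57 in isotype against 9.53 to 14.2 in aCD3, the groups no longer overlapped, as held for 20.5% of genes in that direction. Its reads include the span of the microRNA gene Mir5104, which lies inside Zc3h12d on the same strand.

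Rc3h1, which encodes Roquin-1, a repressor of Icos mRNA, fell as well. It ran from 15.2 to 21.4 TPM (median 19.8) in SPF isotype and from 10.3 to 13.5 TPM (median 11.4) in SPF aCD3, a change of -0.70 on the log2 scale (SE 0.13, limma adjusted p = 6.56e-05), and of -0.30 (SE 0.07, limma adjusted p = 0.00115) after scaling. All 7 members that fell had every aCD3 library below every isotype library, in TPM and after scaling alike, which held for 33.4% and 19.2% of tested genes. Leaving out any of the 28 libraries left 7 members called. Pseudogenes of Btg1 have rows of their own, and how the authors' counting divided reads between near-identical copies is not given in the sources used here.

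**Figure D2:**
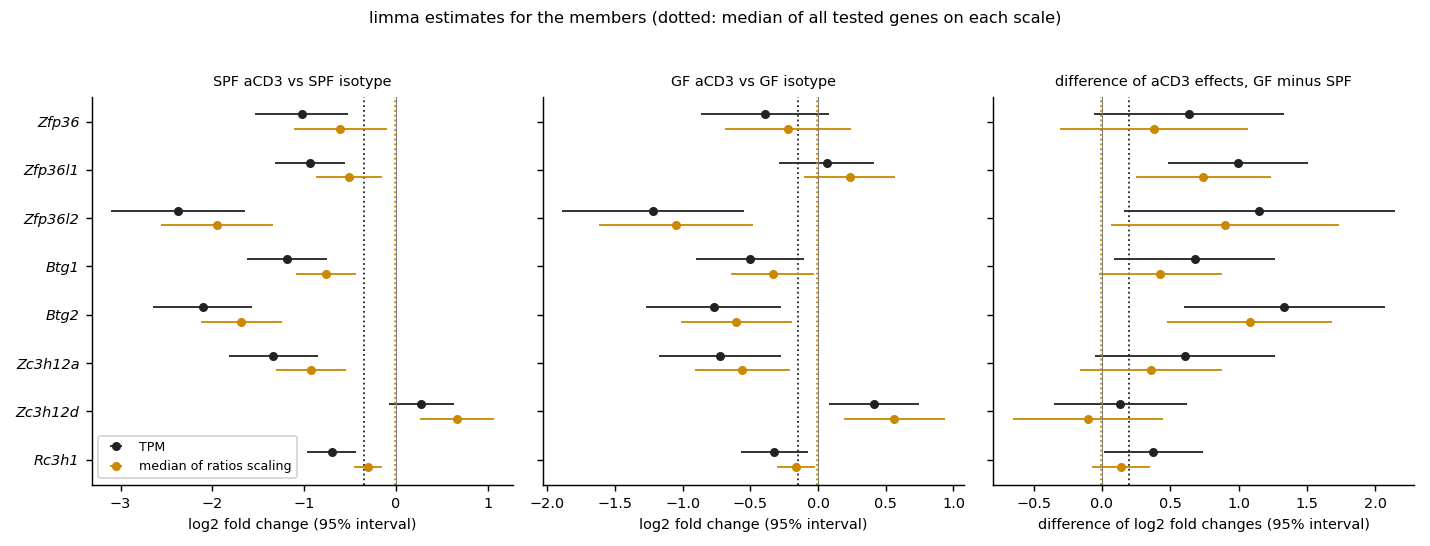
limma log2 fold changes (horizontal axis, with 95% intervals) of the 8 members for aCD3 against isotype in SPF mice, in GF mice, and for the difference between the 2 effects; black points are TPM and ochre points median of ratios scaling, and dotted lines mark the median of all tested genes. The intervals of 7 members lie below 0 on both scales in SPF mice.

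Ratios between paralogs do not depend on how a library is scaled, so the balance within each family was read from them, as the share of the family's summed TPM. The level of a share does depend on the genomic lengths used for TPM, such as 37927 bases for Zc3h12d and 9467 for Zc3h12a. Zfp36l2 made up 47.4% ± 1.59 (SD, n = 6) of the 3 ZFP36 family genes in SPF isotype and 25.8% ± 1.85 (n = 6) in SPF aCD3. The share of Zfp36 was 34.7% ± 1.89 and 47.9% ± 1.20, and that of Zfp36l1 was 17.9% ± 1.13 and 26.3% ± 1.44. Thus Zfp36l2 held the largest share of the family in SPF isotype libraries and Zfp36 in SPF aCD3 libraries, and none of the 3 shares overlapped between these groups.

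The share of Btg2 in the BTG pair was 36.5% ± 1.95 in SPF isotype and 23.3% ± 1.25 in SPF aCD3. Zc3h12d made up 7.46% ± 1.23 of the Regnase pair in isotype and 20.3% ± 2.36 in aCD3. Neither share overlapped between the SPF groups. In GF aCD3 the shares ran wider than in the SPF groups: Zfp36l2 from 16.7% to 65.5%, Zc3h12d from 6.04% to 26.7% and Btg2 from 24.5% to 31.9%. In GF isotype the share of Zfp36l2 ran from 37.5% to 70.9% and that of Zc3h12d from 2.86% to 9.14%. The share of Btg2 ran from 23.1% to 34.5% there, wider than in GF aCD3.

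**Figure D3:**
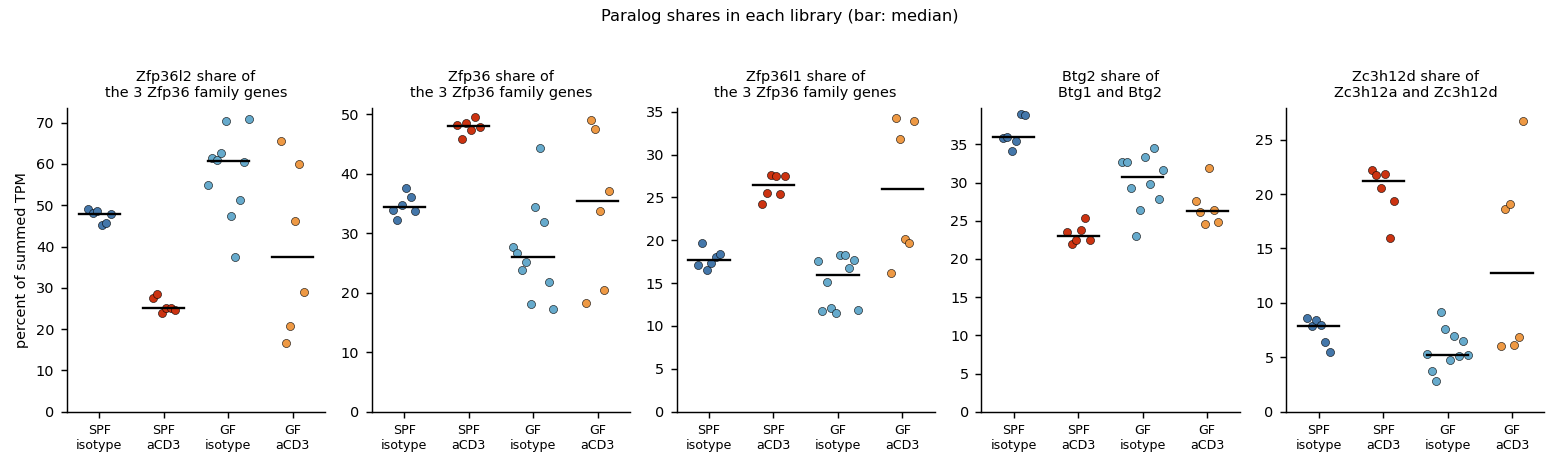
Share of each paralog in the summed TPM of its family (vertical axis, percent, from 0) in each library, by group; points are libraries and bars group medians. In SPF mice the 5 shares do not overlap between isotype and aCD3, with that of Zfp36l2 averaging 47.4% and 25.8%.

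The enzymes that these factors recruit were read from lists chosen with earlier results of these data known. Of 13 genes of the CCR4-NOT complex and its other BTG/TOB adaptors, 11 fell, 1 rose and 1 did not pass in SPF aCD3. Of all tested genes, 50.7% were called lower and 14.2% higher. The median log2 fold change of the list was -0.60 beside -0.35 for all tested genes. After scaling 7 fell and 3 rose, with a median of -0.20, where 29.3% of all tested genes were called lower and 30.6% higher. The lowest was Btg3, a further BTG protein, at -1.56 (limma adjusted p = 2.92e-06), or -1.15 after scaling, from 57.1 to 18.5 TPM on average. Cnot9, a subunit of the complex, was the gene that rose in TPM, by 0.44 (limma adjusted p = 0.000689), or 0.84 after scaling, from 13.3 to 18.4 TPM.

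Among the 6 genes of the PAN2-PAN3 and PARN nucleases and poly(A) binding proteins, 5 fell, with Pan3 lowest at -1.24 (limma adjusted p = 1.53e-05), or -0.86 after scaling. Parn, the least lowered of those called at -0.36 (limma adjusted p = 0.00426), lay at the median of all genes and did not pass after scaling (-0.09, limma adjusted p = 0.346). After scaling 2 of the 6 fell. Of all tested genes, 50.7% were called lower in TPM and 29.3% after scaling. Of 12 decapping and 5′ decay genes 8 fell and 1 rose, with a median of -0.38 that lies near that of all genes. These were led by Dcp1b at -0.70 (limma adjusted p = 0.00278), or -0.38 after scaling, and Lsm4 at 0.57 (limma adjusted p = 0.00116), or 0.99 after scaling. Scaling turned the decapping count to 3 lower and 4 higher. The shares called higher over all tested genes were 14.2% in TPM and 30.6% after scaling.

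The 14 genes of the RNA exosome, which degrades from the 3′ end, split into 5 lower and 4 higher with a median of -0.06. After scaling they split into 2 lower and 7 higher with a median of 0.33. Of all tested genes, 50.7% were called lower and 14.2% higher in TPM, and 29.3% and 30.6% after scaling. Exosc9 was the highest at 1.18 (limma adjusted p = 2.23e-05), or 1.59 after scaling, and Exosc5 the lowest at -0.74 (limma adjusted p = 0.000779), or -0.38 after scaling. Of 13 tested genes for other 3′ UTR binding proteins, 7 fell and 2 rose in TPM, and 5 fell and 6 rose after scaling. Rc3h2, the Roquin paralog, fell from 26.5 to 10.6 TPM at -1.24 on the log2 scale (limma adjusted p = 8.42e-06), beside -0.70 for Rc3h1, and at -0.85 beside -0.30 after scaling. The count of 2 includes Zc3h12c, a Regnase paralog at 0 to 0.449 TPM in SPF isotype and 0.567 to 3.52 TPM in SPF aCD3. It was below 1 TPM in every isotype library and passed the filter on low values through aCD3 libraries alone, so its levels are given as a description, with no test. The counts of this list, in TPM and after scaling, were made with Zc3h12c among the 13.

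mRNAs described as targets of these factors moved in both directions. Of 13 tested, 7 rose and 4 fell in TPM, where 14.2% of all tested genes were called higher and 50.7% lower, with a median log2 fold change of 0.30 beside -0.35 for all tested genes. After scaling 8 rose and 3 fell, where 30.6% were called higher and 29.3% lower. Il10, an anti-inflammatory cytokine, rose most, from 92.3 to 654 TPM (2.81, limma adjusted p = 4.64e-06, and 3.23 after scaling), with Tnfrsf4, the receptor OX40 and a Roquin and Regnase target, next at 2.62 (limma adjusted p = 6.25e-06, and 3.04 after scaling) and Il17a at 2.32 (limma adjusted p = 0.00906, and 2.74 after scaling). Ifng, Icos, Irf4 and Notch1 rose by between 0.30 and 0.68, and by between 0.72 and 1.10 after scaling. Among the 4 that fell is Il2, at 11.8 to 21.8 TPM in SPF isotype and 0 to 0.73 TPM in SPF aCD3. It passed the filter through libraries outside SPF aCD3, so its levels too are given with no test. The counts of this list, in TPM and after scaling, and its median were made with Il2 among the 13. Tnf, whose 3′ UTR holds 5 overlapping nonamers, fell from 81.0 to 34.4 TPM (-1.23, limma adjusted p = 4.28e-06, and -0.81 after scaling). Nfkbid and Rel also fell in TPM, Nfkbid was at -1.11 after scaling, and Rel did not pass after scaling (-0.21, limma adjusted p = 0.292). The nonamer was found on both sides of 0. Of the genes that rose, Notch1 held 1, and Il10, Tnfrsf4, Il17a, Ifng, Icos and Irf4 held 0. Of those that fell, Il2 and Rel held 1 each, Tnf 5 and Nfkbid 0, and Csf2, at 0.28 (limma adjusted p = 0.558), held 4. No relation between the nonamer and the change was tested.

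Of 10 immediate early genes, 8 fell in TPM, where 50.7% of all tested genes did, with a median of -2.02 beside -0.35 for all. After scaling 6 fell, where 29.3% of all did, with a median of -1.62 beside -0.01. Fos was at -2.41 (limma adjusted p = 3.35e-07), and -1.98 after scaling. Ier3 was the only gene of the 10 to rise in TPM, by 0.98 (limma adjusted p = 0.0232), and by 1.31 after scaling, when 2 of the 10 rose.

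**Figure D4:**
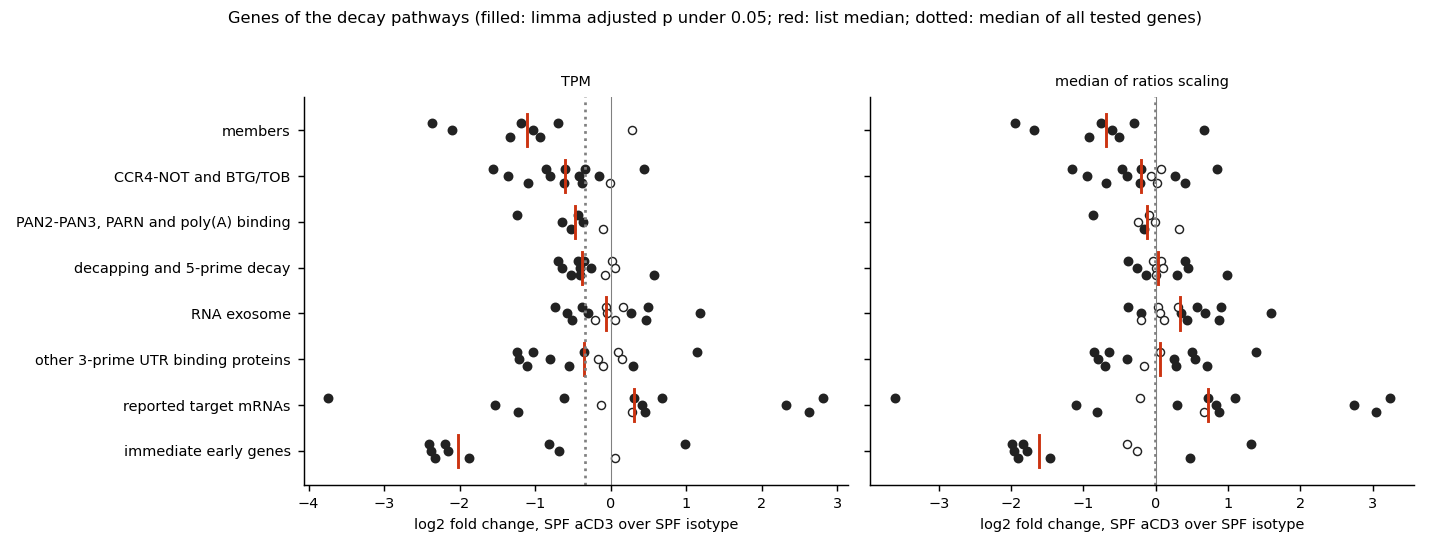
log2 fold change of SPF aCD3 over SPF isotype (horizontal axis) for each gene, in TPM (left) and after median of ratios scaling (right). Shown are the members and 7 lists, of decay enzymes, other RNA-binding proteins, reported targets and immediate early genes. Filled points passed a limma adjusted p under 0.05. Red bars are list medians and the dotted line is the median of all tested genes. Zc3h12c and Il2, given in the text with no test, are drawn with their lists and enter the list medians, and the filling of their points is not used as a result. The members' median lies at -1.11 in TPM and that of the reported targets at 0.30.

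GF isotype was compared with SPF isotype to ask whether the flora changed these genes without aCD3. None of the 8 members passed a limma adjusted p under 0.05, while 7.17% of all tested genes did, nor after scaling, when 1.63% did. At an unadjusted limma p under 0.05 there was 1 member in TPM, Zc3h12d at -0.34 (SE 0.16), beside 3110 of the 12182 tested genes. After scaling there were 4, Zfp36, Zfp36l1, Btg2 and Zc3h12d, beside 1619 of the tested genes. All 4 were lower in GF and none passed adjustment. limma-voom on recovered reads also called 0, with 4 at an unadjusted p under 0.05. The 95% intervals in TPM still allow changes such as -0.84 to 0.08 for Zfp36 and -0.36 to 0.95 for Zfp36l2. They rest on a spread estimated over all groups. With only the groups compared, they were -0.85 to 0.09 for Zfp36 and 0.01 to 0.58 for Zfp36l2. In that setting Zfp36l2, Btg2, Zc3h12d and Rc3h1 had an unadjusted limma p under 0.05, and none passed adjustment. The unadjusted share over all genes is not given here for this setting or for limma-voom. SPF and GF libraries carry separate sample numbers, so a difference of run and one of flora cannot be told apart.

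The GF libraries themselves carry sample numbers in 2 runs, 25 to 33 and 48 to 54, and Zfp36 and Zfp36l1 differed between them. Among GF isotype libraries, Zfp36 ran from 969 to 1369 TPM in the 6 libraries of the first run and from 482 to 782 TPM in the 4 of the second. Zfp36l1 ran from 519 to 684 TPM and from 309 to 517 TPM. Neither gene's runs overlapped in TPM, which held for 4.53% of tested genes in that direction, and after scaling only those of Zfp36 stayed apart (6.09%). The runs of the other 6 members overlapped: Btg1, for example, was at 1832 to 2082 TPM and at 1747 to 2459 TPM.

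The 6 GF aCD3 libraries did not form a single level. Lag3, an inhibitory receptor gene at 5.41 to 18.5 TPM in GF isotype and 505 to 825 TPM in SPF aCD3, was at 498, 452 and 527 TPM in the libraries M1, M2 and M5 and at 9.59, 17.0 and 12.3 TPM in F1, M3 and M4, all labelled aCD3. Values are therefore given per library in the order M1, M2, M5, F1, M3, M4. Zfp36l2 was at 302, 355, 310, 1836, 1739 and 1783 TPM. M1, M2 and M5 lay within the SPF aCD3 range of this gene and F1, M3 and M4 within the GF isotype range of 1160 to 2726 TPM.

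Btg1 was at 943, 841, 770, 2176, 2134 and 2361 TPM, and Btg2 at 333, 273, 254, 828, 1000 and 845 TPM in the same order. Zc3h12a was at 47.1, 42.4, 29.6, 90.6, 127 and 89.9 TPM, and Rc3h1 at 12.4, 13.4, 13.7, 21.1, 25.6 and 22.3 TPM. Each of these 4 genes was low in the libraries with high Lag3 and within or just above the GF isotype range in the other 3. Zc3h12d showed the opposite order, at 10.8, 10.0, 10.8, 5.83, 8.31 and 6.62 TPM.

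Across the runs of sample numbers, Zfp36 and Zfp36l1 did not follow this split. Zfp36 was at 885, 817, 399, 513, 1271 and 609 TPM, with M1, M2 and M3, of the first run of sample numbers, above F1, M4 and M5, of the second. Within each run, Zfp36 in TPM did follow the split. M1 and M2 lay below the first run's GF isotype range of 969 to 1369 TPM and M3 within it. M5 lay below the second run's range of 482 to 782 TPM and F1 and M4 within it. After scaling this separation was lost, with each library within the GF isotype range of its run, 824 to 1213 and 418 to 639. Zfp36l1 was at 620, 547, 365, 453, 759 and 585 TPM, and after scaling at 696, 615, 441, 399, 615 and 504, where the first run again lay above the second. In the 3 libraries with high Lag3, Zfp36l1 was at 365 to 620 TPM, above its 285 to 336 TPM in SPF aCD3.

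**Figure D5:**
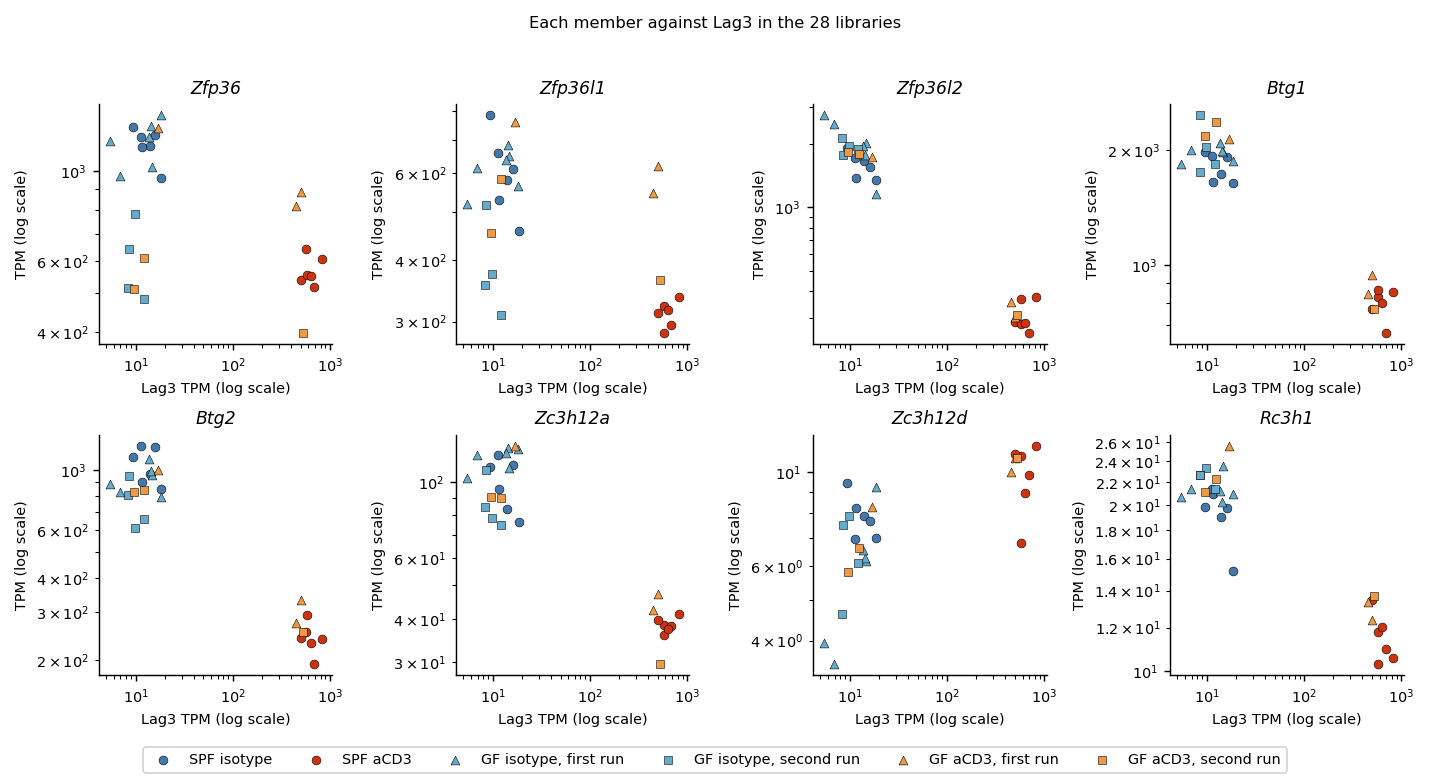
TPM of each member (vertical log axis) against Lag3 TPM (horizontal log axis) in the 28 libraries; colours are groups and triangles and squares the 2 runs of the GF libraries. In GF aCD3, 3 libraries lie with the SPF aCD3 libraries at a Lag3 of 452 to 527 TPM and the other 3 with the isotype libraries, and Zfp36 and Zfp36l1 spread by run on both sides.

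Taken as labelled, 2 of the 8 members were lower in GF aCD3 than in GF isotype, Zfp36l2 at -1.22 (SE 0.33, limma adjusted p = 0.0481) and Zc3h12a at -0.72 (SE 0.22, limma adjusted p = 0.0488), where 4.61% of tested genes were called lower and 7.08% in either direction. Btg2 at -0.77 (limma adjusted p = 0.0507), Btg1 at -0.50 (0.0777), Rc3h1 at -0.32 (0.0699), Zfp36 at -0.39 (0.215), Zfp36l1 at 0.06 (0.803) and Zc3h12d at 0.41 (0.0795) did not pass. After scaling, with 4.1% of genes called lower and 5.62% higher, Zc3h12d was called higher as well, at 0.56 (limma adjusted p = 0.0499). These calls lie at the threshold. Leaving out F1, M4 or M3 of GF aCD3 gave 6, 6 and 5 members called, and leaving out any of the other 25 libraries gave 0. With the run as a covariate 0 members passed, with log2 fold changes of -1.17 for Zfp36l2 and -0.67 for Zc3h12a. Within the first run these values were -1.47 and -0.95 and within the second -0.85 and -0.43, and none passed.

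Between the aCD3 groups, 6 members were higher in GF than in SPF, Zfp36l2 by 1.45 (SE 0.36, limma adjusted p = 0.00265), Btg2 by 1.04 (0.0031), Btg1 by 0.81 (0.00382), Zfp36l1 by 0.76 (0.00242), Zc3h12a by 0.68 (0.0216) and Rc3h1 by 0.54 (0.00216), where 48.9% of tested genes were called higher. Zfp36 at 0.26 and Zc3h12d at -0.21 did not pass. After scaling, with 15.8% of genes called higher and 16.9% lower, Zfp36l2 (1.04, limma adjusted p = 0.0138) and Btg2 (0.63, limma adjusted p = 0.0315) were still higher, Zc3h12d was lower (-0.58, limma adjusted p = 0.0315) and the others did not pass, Zfp36 turning to -0.16. Zfp36l1 was the member with every GF aCD3 library above every SPF aCD3 library in TPM, at 365 to 759 against 285 to 336 TPM, as were 12.2% of tested genes. After scaling its ranges met, at 399 to 696 and 392 to 421. Without F1, M3 or M4, Zc3h12a did not pass, with a limma adjusted p of up to 0.104. All of these are differences between the groups as labelled. Zfp36l2 in M1, M2 and M5 was at 302, 355 and 310 TPM, within its SPF aCD3 range of 255 to 378 TPM. In F1, M3 and M4 it was at 1836, 1739 and 1783 TPM. SPF and GF libraries also carry separate sample numbers, so run and flora cannot be told apart.

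The difference between the aCD3 effects of GF and SPF mice was tested directly, over the libraries as labelled. It passed for 2 members, where 2.44% of tested genes had a higher effect in GF: Zfp36l1 with a difference of 1.00 (SE 0.25, limma adjusted p = 0.034) and Btg2 with 1.33 (SE 0.36, limma adjusted p = 0.0416). Both passed after scaling (0.74, limma adjusted p = 0.0465, and 1.08, limma adjusted p = 0.0261), where 5.16% of genes did. Zfp36l2 at 1.15 (SE 0.48, limma adjusted p = 0.11) and Btg1 at 0.68 (SE 0.29, limma adjusted p = 0.111) did not pass, nor did Zfp36 at 0.64, Zc3h12a at 0.61, Rc3h1 at 0.38 and Zc3h12d at 0.13. For Zfp36l1 the difference lies between a decrease of 0.93 in SPF and a value of 0.06 in GF.

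The call for Zfp36l1 was lost on leaving out F1, F2 or M2 of SPF isotype, F3, M2 or M3 of SPF aCD3, or F1, M3 or M4 of GF aCD3, with limma adjusted p-values up to 0.0782. That for Btg2 held without F3 of SPF isotype, F4, M3 or M4 of GF isotype, or M1, M2 or M5 of GF aCD3, and was lost on leaving out any of the other 21 libraries, up to 0.132. The differences themselves stayed between 0.89 and 1.11 for Zfp36l1 and between 1.11 and 1.52 for Btg2.

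Across the 28 libraries, after scaling, some of the members varied together. These correlations are a description over libraries that share groups and runs. Pearson's r was 0.92 between Zfp36l2 and Btg1, 0.93 between Btg1 and Btg2 and 0.93 between Btg2 and Zc3h12a, and 0.77 between Zfp36 and Zfp36l1. For Zfp36 or Zfp36l1 with Zfp36l2, Btg1, Btg2 or Zc3h12a it ran from 0.11 (Zfp36l1 with Zfp36l2) to 0.50 (Zfp36 with Zc3h12a). Zc3h12d ran against Zfp36l2 with an r of -0.88, and Rc3h1 with Btg1 had 0.81.

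The 3 genes most alike to each member over these libraries were named by the same measure. For Zfp36 they were Nr4a1, an orphan nuclear receptor gene induced by T cell receptor signals (r = 0.85), Jund (0.84) and Atf3 (0.83), both of the bZIP transcription factor family. For Btg2 and for Zc3h12a the first was Junb, an AP-1 subunit, with an r of 0.96 in both, followed by Sertad2 and Dnajb9 for Btg2 and by Ripk2 and Kpna1 for Zc3h12a. Zfp36l2 was most like Pgm2l1 (0.98), Mbp and Jmy, and Btg1 most like Susd2 (0.96), Ptger4, a prostaglandin E2 receptor, and the kinase gene Dyrk2. Zfp36l1 was most like Nt5dc3 (0.84), Plcb4 and the NF-kB subunit Rel (0.79), Zc3h12d like Elk3 (0.92), Tmem106c and Phb2, and Rc3h1 like Sp4 (0.94), Zzef1 and Ccnt1.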

How the data were processed

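RNA of 28 libraries was analysed from the authors' deposited TPM table. Per the file headers, the authors made the TPM values with HOMER over RefSeq transcripts of build mm10, condensed by gene. The aligner's settings, read filters and strand use are not given in the sources used here. Per the submitters' processing notes, Cell Ranger 7.1.0, R 4.4.2 and Seurat 5.1.0 were used, with no role stated. In 99.2% of rows the length equals the genomic span, so the values were divided by exons and introns together. TPM times length gave whole reads in 100% of the low non-zero values checked (within 0.15 reads). The read numbers of the members lie above those checked. A further 26 TPM columns match no sample and were not used. Per the labels, a total RNA kit was used, while another label says polyA RNA.

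limma 3.58.1 (R 4.3.3) was run on log2(TPM + 1) for genes with at least 1 TPM in at least 6 libraries, with group means, a sex term and empirical Bayes with a trend, over all libraries. P-values were adjusted by Benjamini-Hochberg over 12182 genes in each of 5 comparisons, threshold 0.05, two-sided. Fold changes carry the pseudocount of 1, which makes those of low genes smaller. Median of ratios scaling, other filters and pseudocounts (0.1 and 5), limma-voom, a replicate block, runs and leaving out each library were alternatives. The test was also run on simulated data, for aCD3 against isotype in SPF alone, so the simulation does not cover the GF libraries. Python 3.11.15 and pandas 2.3.3 were used for the rest. Named were all members, the 3 genes of highest Pearson r with each (without Gm, Rik, Mir and Snor symbols), the highest and lowest called gene of each list in SPF mice, and Lag3. Further targets and immediate early genes were named after their values were seen. Members, lists and tests were chosen with earlier results of these data known.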

Additional observations from a re-analysis of the deposited data

Results flagged for a closer look

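Btg1 in the library M4 of GF isotype, at 2459 TPM, lay far from the other 9 libraries of its group, of which the nearest was at 2082 TPM. Among 32 sets of member values by group checked in this way 1 stood out, where about 1.6 would by chance. The aCD3 effects of GF and SPF mice differed for Zfp36l1, by 1.00 on the log2 scale (-0.93 in SPF and 0.06 in GF), and for Btg2, by 1.33 (-2.11 in SPF and -0.77 in GF), in the test of the difference itself. Lag3 and Btg2 in 3 of the 6 GF aCD3 libraries, F1, M3 and M4, were at the level of GF isotype, with Btg2 at 828, 1000 and 845 TPM. The other 3, M1, M2 and M5, had Btg2 at 333, 273 and 254 TPM, beside 194 to 293 TPM in SPF aCD3. The labels do not say whether these mice differed, so the difference between GF and SPF holds for the libraries as labelled. The call was lost on leaving out any of 21 of the 28 libraries for Btg2 and any of 9 for Zfp36l1.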

How the results depend on the processing

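In SPF mice every alternative and every left-out library gave 7 or 8 of the members called for aCD3 against isotype, each in the same direction. The number of genes called there ran from 6242 to 8362 over the settings and from 7414 to 8057 without each library in turn, with 7206 by limma-voom on the recovered reads, although scaling turned the split from 1726 higher and 6172 lower to 3727 and 3575. The other comparisons moved more, and the causes were not tested. Over all comparisons, single member values under an alternative other than leaving out a library kept direction and side of the threshold in 335 cases, lost the call in 28, gained it in 11 and turned in 10.

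For GF aCD3 against GF isotype, 862 genes and 2 members were called with limma. Both counts were 0 with a pseudocount of 0.1, with no filter on low values, with only the groups compared, with a replicate block, with the run as a covariate, and with the run and scaling together, an alternative chosen after seeing the data. At an unadjusted p under 0.05 these settings gave 4339, 5021, 2355, 4146, 2908 and 3090 genes. Within the first run 1 gene and 0 members passed, and within the second run likewise 1 and 0. Without Rn45s and histone genes 1 member passed. Leaving out each library gave 0 to 4215 genes and 0 to 6 members, with -0.027 to 0.17 for Zfp36l1. Zfp36l1 turned to -0.017 with the replicate block and to -0.018 without M5 of GF isotype.

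For GF isotype against SPF isotype the 874 genes became 199 with median of ratios scaling, 225 with limma-voom, 2370 without Rn45s and histone genes and 1814 with only the groups compared, and 322 to 1137 without each library. It was 322 without F3 and 567 without F1 of SPF isotype, and 0 members were called in each. Btg1 turned to -0.027 with scaling and -0.033 with limma-voom, Zc3h12a to -0.087 and -0.095, and Zfp36l1 to 0.012 with the replicate block.

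For GF aCD3 against SPF aCD3, scaling gave 3986 genes in place of 6496 and 3 members in place of 6. Zfp36, at 0.26 and not called, turned to -0.16 with scaling and -0.15 with limma-voom, and was called at 0.57 (limma adjusted p = 0.00715) with the replicate block, which gave 7 members.

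For the difference of aCD3 effects, the 424 genes became 1422 with scaling, 1824 with limma-voom, 774 and 273 with pseudocounts of 0.1 and 5, 177 with no filter and 162 with the replicate block, and 32 to 3187 without each library (F1 and M5 of GF aCD3). The 2 members became 0 with no filter, 1 with the replicate block and 0 to 5 without each library, 5 without M5 of GF aCD3. Zc3h12d turned to -0.10 with scaling and -0.092 with limma-voom.

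Libraries that share a replicate name showed little shared deviation: of 32 such pairs 5 had a correlation of deviations over 0.1, with a median of 0.01. Between GF isotype and GF aCD3 the values ran from -0.21 (F1) to 0.20 (M4). GF libraries also differ by run and by Lag3, so this check cannot settle whether the names pair samples. Depth limits Zc3h12d most, at 217 to 875 reads per library.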
